A study of Drosophila melanogaster with 6 samples.

Results

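Hsp22, Hsp23, Hsp26, Hsp27, Hsp67Bc, Hsp83, Hsc70-4, DnaJ-1, stv and Hsf are 10 genes of the heat shock response and of cytosolic protein folding, out of 16641 genes counted in fly heads. They were chosen by name, with earlier results of these data known. In the 6 count tables, 9 were found by their FlyBase gene ID and Hsc70-4 by its exon structure. Head RNA was sequenced from male Drosophila melanogaster aged 3 days and kept at 18 C, with 3 libraries of Adar5G1 flies, whose strain label also lists y and sc, and 3 of w1118 flies. Adar is the gene of the RNA-editing enzyme that turns adenosines of transcripts into inosines, and Adar5G1 is a mutant allele of it. The w1118 flies, the wild type of the study, carry a mutated white gene. All animals were raised at the same temperature and the labels name no heat shock. Each genotype was 1 stock, so the allele and the rest of the genetic background cannot be told apart.

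Molecular chaperones keep other proteins from aggregating and help them fold. Small heat shock proteins bind unfolding clients without using ATP and hold them until Hsp70 and Hsp90 machines, which do use ATP, take them over. J-domain proteins deliver clients to Hsp70 and BAG-domain proteins release them from it. In flies, heat and other proteotoxic stress activate the transcription factor Hsf, which switches on the small heat shock protein genes clustered at cytological position 67B, the Hsp70 genes and Hsp83.

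Total counts over genes ran from 6872569 to 21639081 fragments per library, and 3.77% to 36.1% of them lay on unplaced scaffolds. The small heat shock protein members had 17 to 177 fragments in a library and the other members 358 to 16661. Adar had 5, 1 and 19 fragments in Adar5G1 against 2860, 6142 and 2602 in w1118, and w had 226, 93 and 411 against 1, 2 and 0, so both followed the labels. The head markers ninaE, elav and repo were present in every library. In CPM, fragment counts divided by library size after edgeR's TMM scaling, photoreceptor markers summed to 17273 to 20106 CPM in Adar5G1 and 21896 to 23560 CPM in w1118, with 0 of 5 higher and 1 lower, and neuronal markers to 3889 to 4783 and 3344 to 3771 CPM, with 1 of 4 higher and 0 lower. The summed ranges of muscle markers, with 1 of 11 higher and 4 lower, and of glial markers, with 0 of 5 called, overlapped. The labels do not tie libraries to separate collections, so the p-values rest on a spread that may be technical.

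None of the 10 genes passed the test between Adar5G1 and w1118 heads. With edgeR's quasi-likelihood test and an adjusted p threshold of 0.05, 0 of 10 were higher and 0 of 10 lower, where 13.9% of the 10201 genes tested passed, 8.82% as higher and 5.13% as lower. DESeq2 and limma-voom also called 0 of the 10. At an unadjusted p under 0.05 there was 1 gene, Hsp67Bc, where 26.4% of all genes tested were past that limit. The median log2 fold change of the 10 was -0.0029, beside -0.00028 over all genes tested, and 5 of the 10 values were positive and 5 negative. The standard error of the log2 difference was 0.07 to 0.12 for Hsp83, Hsc70-4, DnaJ-1, stv and Hsf and 0.14 to 0.53 for the 5 small heat shock proteins, with Hsp67Bc at the lower end. In bulk heads, fewer cells of a type and less RNA per cell cannot be told apart.

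**Figure D1:**
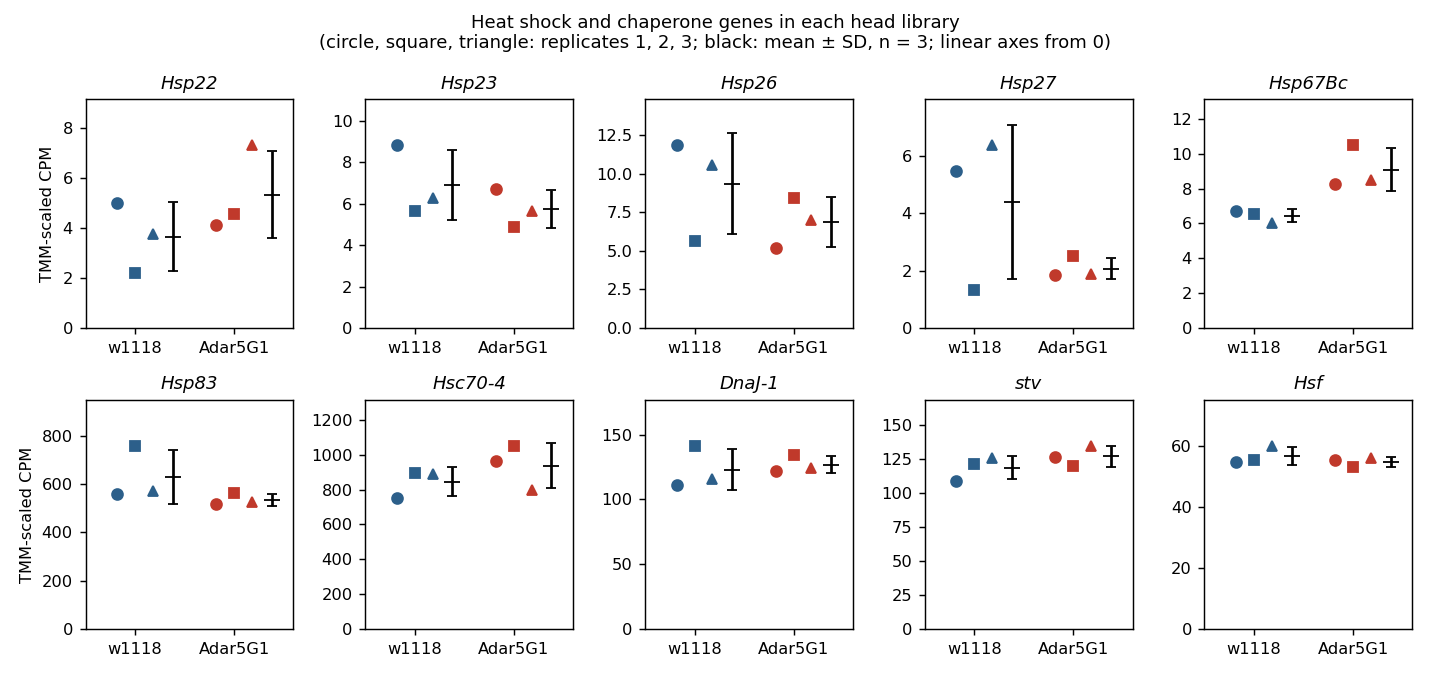
Symbols give the TMM-scaled CPM of each of the 10 genes in the 3 w1118 (blue) and 3 Adar5G1 (red) libraries, with black bars for mean ± SD (n = 3) on linear axes that start at 0. The values of the genotypes overlap for every gene but Hsp67Bc, where the 3 Adar5G1 libraries (8.28 to 10.48) sit above the 3 w1118 libraries (6.05 to 6.74).

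Levels between genes were compared per length, as CPM per kilobase of annotated exon. Hsc70-4, the constitutive cytosolic Hsp70, had the highest level of the 10, with a mean of 328 CPM per kb over the 6 libraries. Hsp83, the fly Hsp90, followed at 197 CPM per kb, so that Hsc70-4 stood 1.67 times above it. The cochaperones came next, with DnaJ-1 at 57.7 and stv at 33.4 CPM per kb, and Hsf was at 19.1 CPM per kb. The 5 small heat shock proteins were the lowest of the 10. Hsp26 was at 8.47, Hsp67Bc at 7.86, Hsp23 at 7.16, Hsp27 at 2.65 and Hsp22 at 2.37 CPM per kb. The ranges over the 6 libraries overlapped between neighbours in this order only for Hsp26 with Hsp67Bc, Hsp67Bc with Hsp23, and Hsp27 with Hsp22. Hsp83 was thus 23.3 times and DnaJ-1 6.82 times above Hsp26, which had the highest mean of the 5 small heat shock proteins. The gene of the transcription factor Hsf itself was 2.26 times above Hsp26, and Hsc70-4 was 138 times above Hsp22. All fragments counted for Hsp22 were also counted for CG4456, a gene that shares its exons, so the level cannot be assigned to Hsp22 alone.

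**Figure D2:**
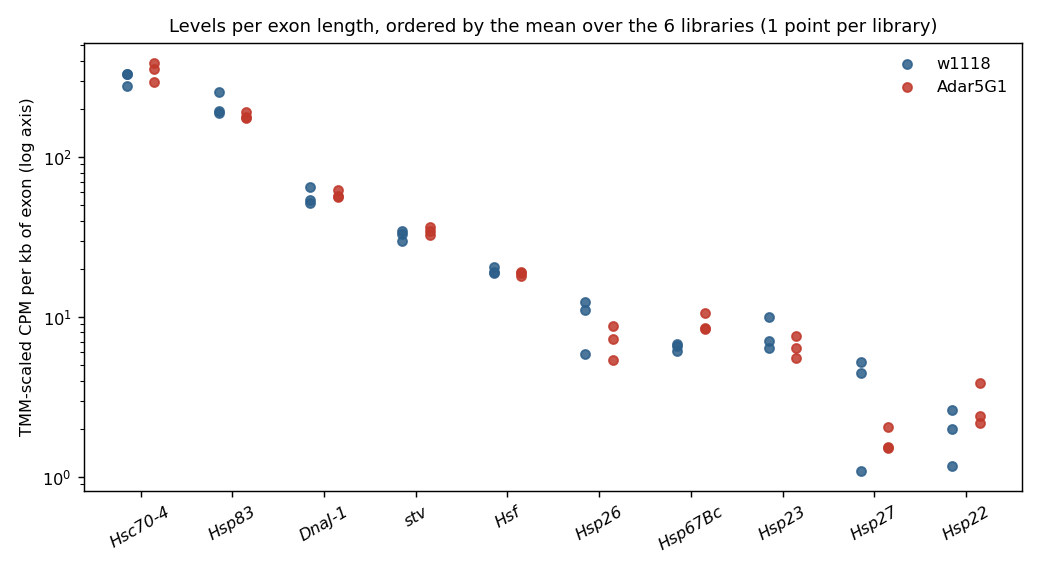
Points give the level of each of the 10 genes in each of the 6 libraries as TMM-scaled CPM per kb of exon (log axis), ordered by the mean over the libraries. Hsc70-4 (276 to 387) and Hsp83 (175 to 256) stand at the top, and the 5 small heat shock proteins lie at or below 12.4 CPM per kb.

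The small heat shock protein members lie together on the left arm of chromosome 3. Build dm3 places Hsp67Bc at 3L:9364611-9365597 on the minus strand, Hsp22 at 3L:9366031-9368064 on the plus strand, Hsp26 at 3L:9369518-9370475 on the minus strand, Hsp23 at 3L:9374982-9375865 on the plus strand and Hsp27 at 3L:9377163-9378382 on the plus strand. The 5 genes thus span 13772 bases. With the exons of all transcripts merged, Hsp23, Hsp26, Hsp27 and Hsp67Bc each form 1 exon block, as does DnaJ-1.

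Hsp67Bc, FBgn0001229, is a small heat shock protein that works with Starvin in clearing proteins by autophagy in flies. It had 8.28, 10.48 and 8.48 CPM in Adar5G1 replicates 1, 2 and 3, and 6.74, 6.54 and 6.05 CPM in the w1118 replicates. Every Adar5G1 library was above every w1118 library, which made Hsp67Bc the only 1 of the 10 with groups that did not overlap, where 31.5% of all genes tested had such groups (17.1% with Adar5G1 above and 14.4% with Adar5G1 below). The means were 9.08 ± 1.22 and 6.44 ± 0.35 CPM (SD, n = 3 each), a 1.38-fold difference. On the log2 scale this was 0.47 (SE 0.14, 95% interval 0.15 to 0.79) with an unadjusted edgeR p of 0.00922 and an adjusted p of 0.061, so the gene did not pass the threshold. Over the alternatives the adjusted p ran from 0.0582 to 0.637 and never passed it.

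Hsp27, FBgn0001226, is a small heat shock protein found largely in the nucleus. It had 1.85, 2.51 and 1.87 CPM in the Adar5G1 libraries against 5.46, 1.33 and 6.37 CPM in the w1118 libraries, from 17 to 59 fragments each. In w1118, replicates 1 and 3 were above all Adar5G1 libraries and replicate 2 was below all of them, so the groups overlapped. The means were 2.07 ± 0.38 and 4.39 ± 2.69 CPM (SD, n = 3 each). The log2 difference was -1.03 (SE 0.53, 95% interval -2.25 to 0.19) with an edgeR adjusted p of 0.266. Whether Hsp27 passed hung on 1 library. Without w1118 replicate 2 the log2 difference was -1.56 with an edgeR adjusted p of 0.00675, and without w1118 replicate 3 it was -0.61 with an adjusted p of 0.58.

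Hsp26, FBgn0001225, a cytosolic small heat shock protein, had 5.17, 8.41 and 6.99 CPM in the Adar5G1 libraries and 11.85, 5.66 and 10.59 CPM in the w1118 libraries. As for Hsp27, the w1118 replicates 1 and 3 were the highest of the 6. Unlike for Hsp27, w1118 replicate 2 lay among the mutants. The means were 6.86 ± 1.63 and 9.36 ± 3.27 CPM (SD, n = 3 each), a log2 difference of -0.43 (SE 0.29, 95% interval -1.10 to 0.24) with an edgeR adjusted p of 0.412. Leaving out 1 library moved it between -0.24 without w1118 replicate 1 (edgeR adjusted p 0.727) and -0.74 without w1118 replicate 2 (edgeR adjusted p 0.0694).

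Hsp22, FBgn0001223, encodes a small heat shock protein of the mitochondrial matrix. It had 4.14, 4.58 and 7.33 CPM in the Adar5G1 libraries and 4.99, 2.22 and 3.78 CPM in the w1118 libraries. The groups overlapped, with Adar5G1 replicate 3 the highest and w1118 replicate 2 the lowest. The means were 5.35 ± 1.73 and 3.66 ± 1.39 CPM (SD, n = 3 each), a log2 difference of 0.66 (SE 0.34, 95% interval -0.11 to 1.43) with an edgeR adjusted p of 0.259. Leaving out 1 library moved it between 0.31 without Adar5G1 replicate 3 and 0.92 without w1118 replicate 1. All 1900 exonic bases of Hsp22 are also exonic bases of CG4456, known as Hsp67Bb, on the same strand. A fragment was counted for every gene it overlapped and both rows hold the same number in every library, so the transcripts of these genes cannot be told apart here.

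Hsp23, FBgn0001224, another cytosolic small heat shock protein, had 6.72, 4.87 and 5.65 CPM in the Adar5G1 libraries and 8.83, 5.66 and 6.26 CPM in the w1118 libraries. The groups overlapped, with w1118 replicate 1 the highest of the 6. The means were 5.75 ± 0.93 and 6.92 ± 1.68 CPM (SD, n = 3 each), a log2 difference of -0.22 (SE 0.21, 95% interval -0.69 to 0.25) with an edgeR adjusted p of 0.57. Leaving out 1 library moved it between -0.04 without w1118 replicate 1 and -0.37 without w1118 replicate 2.

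**Figure D3:**
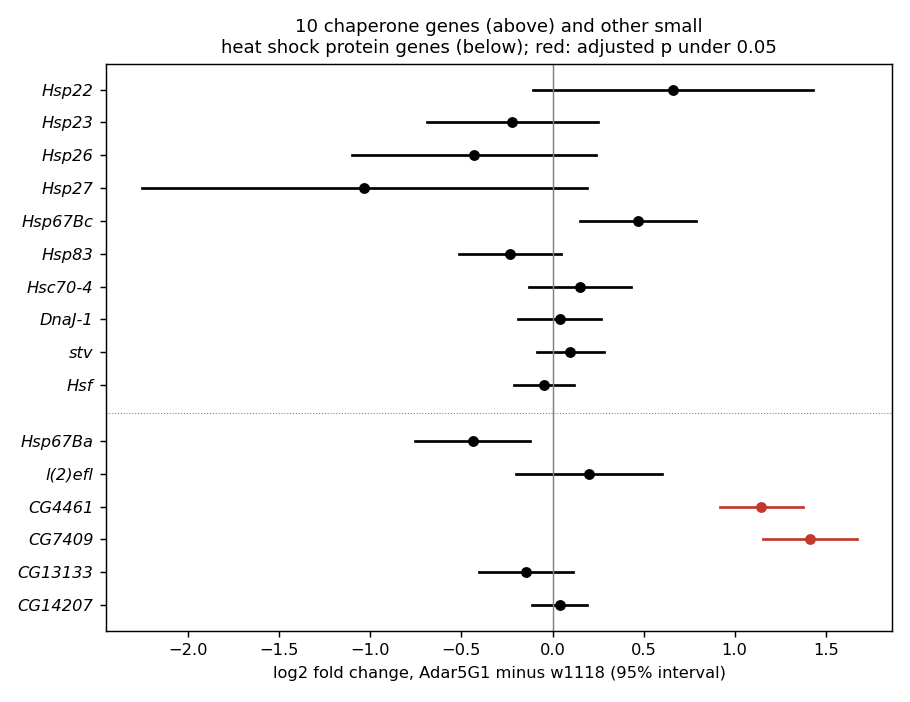
Points give the log2 fold change of Adar5G1 over w1118 with its 95% interval for the 10 genes (above the dotted line) and 6 other small heat shock protein genes (below it), in red where the adjusted p passed 0.05. The intervals are narrow for the 5 abundant genes (SE 0.07 to 0.12) and wide for the small heat shock proteins (SE 0.14 to 0.53), 9 of the 10 include 0, and CG4461 (1.15) and CG7409 (1.41) stand apart below the line.

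Hsp83, FBgn0001233 at 3L:3192969-3197059, had 518.4, 564.0 and 526.2 CPM in the Adar5G1 libraries and 558.9, 758.7 and 571.5 CPM in the w1118 libraries. In w1118, replicate 2 stood above the 5 other libraries, which lay close together. The means were 536.2 ± 24.3 and 629.7 ± 111.9 CPM (SD, n = 3 each). The log2 difference was -0.23 (SE 0.12, 95% interval -0.51 to 0.05) with an edgeR adjusted p of 0.275, and it was -0.08 without w1118 replicate 2.

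Hsc70-4, FBgn0001219 at 3R:11068409-11072336, had 966.8, 1050.1 and 797.8 CPM in the Adar5G1 libraries and 749.9, 893.4 and 891.6 CPM in the w1118 libraries. The groups overlapped, since Adar5G1 replicate 3 was below w1118 replicates 2 and 3. The means were 938.2 ± 128.5 and 845.0 ± 82.3 CPM (SD, n = 3 each), a log2 difference of 0.15 (SE 0.12, 95% interval -0.13 to 0.43) with an edgeR adjusted p of 0.501. Its row was found by the exon structure of the gene, as its current ID has no row. Applied to the genes whose ID is in both annotations, this match led to the right ID for 99.6% of those with a unique structure.

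DnaJ-1, FBgn0263106 at 3L:5743129-5745289, is a J-domain protein of the Hsp40 type and brings clients to Hsp70. It had 121.9, 134.2 and 123.9 CPM in the Adar5G1 libraries and 111.5, 141.2 and 116.0 CPM in the w1118 libraries. The w1118 values enclosed those of the mutant. The means were 126.7 ± 6.59 and 122.9 ± 16.0 CPM (SD, n = 3 each), a log2 difference of 0.04 (SE 0.10, 95% interval -0.19 to 0.27) with an edgeR adjusted p of 0.853. The sign of this difference turned with upper-quartile scaling, to -0.020.

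The gene stv, FBgn0086708 at 3L:13470641-13476615, encodes Starvin, the fly BAG3-like cochaperone that takes clients from Hsp70 and works at muscle. It had 126.1, 119.3 and 134.2 CPM in the Adar5G1 libraries and 108.8, 120.8 and 125.6 CPM in the w1118 libraries, which overlapped. The means were 126.5 ± 7.48 and 118.4 ± 8.64 CPM (SD, n = 3 each), a log2 difference of 0.10 (SE 0.08, 95% interval -0.09 to 0.28) with an edgeR adjusted p of 0.513.

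Hsf, FBgn0001222 at 2R:14017808-14022139, had 55.2, 52.9 and 55.9 CPM in the Adar5G1 libraries and 54.5, 55.2 and 59.8 CPM in the w1118 libraries. All 6 values were close together. The means were 54.7 ± 1.61 and 56.5 ± 2.90 CPM (SD, n = 3 each), a log2 difference of -0.05 (SE 0.07, 95% interval -0.21 to 0.12) with an edgeR adjusted p of 0.757. Transcript levels of Hsf do not show how active the protein is, since it is activated after translation. For 7 of the 10 genes the 95% interval lay inside a 2-fold difference in either direction. It reached beyond 2-fold for the other 3, Hsp22, Hsp26 and Hsp27, where a 2-fold difference was not excluded by these libraries.

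The libraries of 1 genotype did not vary alike. Hsp27 had a coefficient of variation of 61.2% among the w1118 libraries and 18.2% among the Adar5G1 libraries, while Hsf had 5.14% and 2.94%, beside medians over all genes tested of 9.49% and 10.8%. These medians were not matched for level, and Hsp27 had only 17 to 59 fragments in a library. In w1118, replicates 1 and 3 were 4.10 and 4.79 times replicate 2 for Hsp27, 2.09 and 1.87 times for Hsp26, and 2.25 and 1.70 times for Hsp22. For Hsp83 the order was the opposite, with replicates 1 and 3 at 0.737 and 0.753 times replicate 2, and for DnaJ-1 they were at 0.790 and 0.822 times. Over all 10 members, w1118 replicate 2 was the lowest of the 3 w1118 libraries for 4, Hsp22, Hsp23, Hsp26 and Hsp27. Replicate 1 was the lowest for 5 and replicate 3 for 1. Replicate 2 was the highest for 3, Hsp83, Hsc70-4 and DnaJ-1. Of the 8 tested genes of the cytosolic Hsp70, Hsc70 and Hsp110 list, that library was the lowest for 4 and the highest for 3. The 4 were Hsp70Ab, Hsp70Ba, Hsp70Bb and Hsp68, and the 3 were Hsp70Bc, Hsc70-1 and Hsp110. For the 4, in that order, replicate 1 was 4.99, 5.05, 7.30 and 2.22 times replicate 2. Replicate 3 was 2.70, 2.635, 4.84 and 1.48 times replicate 2. Of the 11 tested Hsp90 cochaperones, w1118 replicate 2 was the lowest for 5 and the highest for 3. Of 7 other small heat shock proteins it was the lowest for 2 and the highest for 2. For 8 J-domain genes these counts were 1 and 4, and for 14 CCT chaperonin and prefoldin genes 3 and 5. For 6 mitochondrial chaperones they were 4 and 0. The share over all genes tested was not counted. These are the values of 3 libraries and carry no test.

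**Figure D4:**
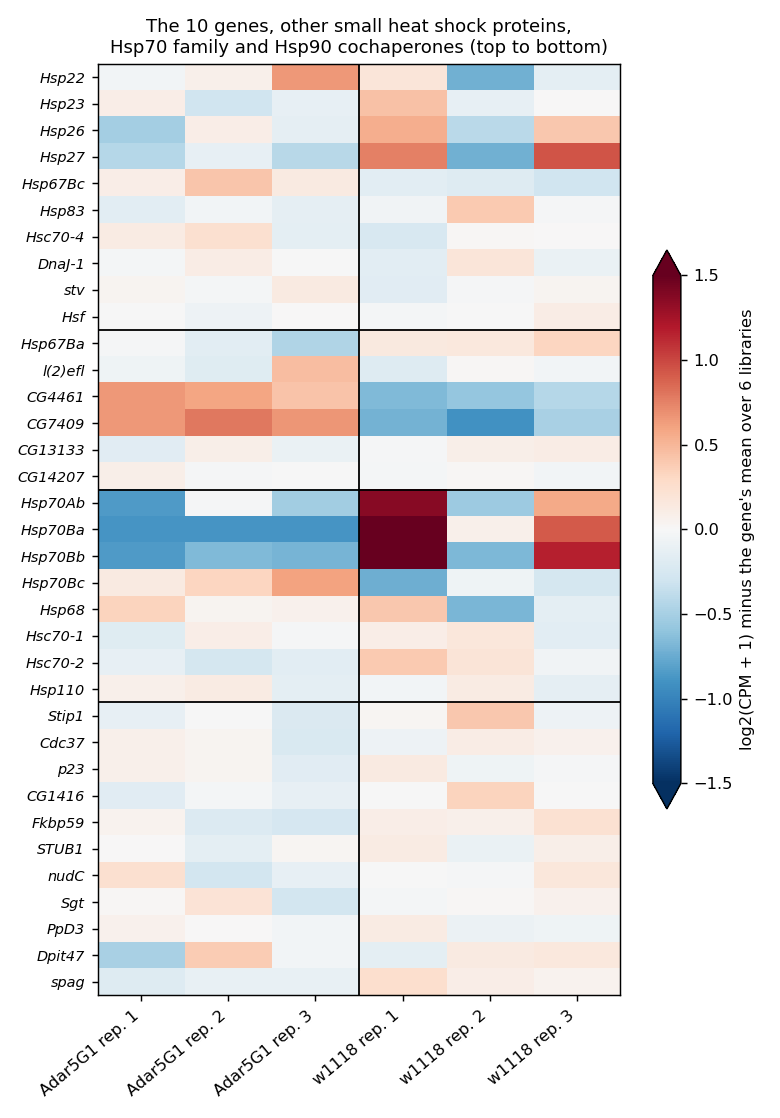
Colours give the log2(TMM-scaled CPM + 1) of each gene (rows) in each library (columns), centred on the mean of the gene over the 6 libraries and capped at 1.5 either way, for the 10 genes at the top and tested genes of 3 related lists. Among the 10 genes, w1118 replicate 2 is lowest for Hsp22 and Hsp27 and highest for Hsp83 and DnaJ-1.

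Within 10 kb of the small heat shock protein members, the annotation lists 13 further genes, of which 9 were tested. Of these, 2 were higher in Adar5G1 and 0 lower, where 8.82% of all genes tested were higher and 5.13% lower. CG4461, FBgn0035982, encodes a protein with the alpha-crystallin domain of small heat shock proteins and lies at 3L:9368530-9369393, between Hsp22 and Hsp26. It had 55.3, 53.3 and 47.2 CPM in the Adar5G1 libraries and 21.7, 22.96 and 25.6 CPM in the w1118 libraries, without overlap. The means were 51.95 ± 4.23 and 23.4 ± 1.98 CPM (SD, n = 3 each), a 2.21-fold rise (log2 1.15, SE 0.10, edgeR adjusted p 0.00025). The antisense RNA gene asRNA:CR43481, FBgn0263492, had 40, 14 and 46 fragments in Adar5G1 and 1, 1 and 0 in w1118. It passed the expression filter through its Adar5G1 counts alone, so it could count only as higher. Scaled to library size, the ratio of the summed counts of 100 and 2 was 43.6, with a 95% counting interval of 11.8 to 365, and the edgeR adjusted p was 0.000526. Hsp67Ba, a further small heat shock protein gene of the cluster, had 17.7, 16.1 and 12.9 CPM in the Adar5G1 libraries and 20.0, 20.2 and 22.8 CPM in the w1118 libraries. All mutant values were lower, but the log2 difference of -0.44 (SE 0.14) had an edgeR adjusted p of 0.0715. Pdxk, mRRF1, CG4452, Fdx1 and CG4080 did not pass the test, nor did CG4456, which repeats the fragments of Hsp22. CG34456 and Klp67A, with at most 24 fragments in a library, were not tested. CG34456 had 7, 2 and 9 fragments in Adar5G1 against 17, 10 and 24 in w1118. Another pair of rows had 0 fragments in every library.

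**Figure D5:**
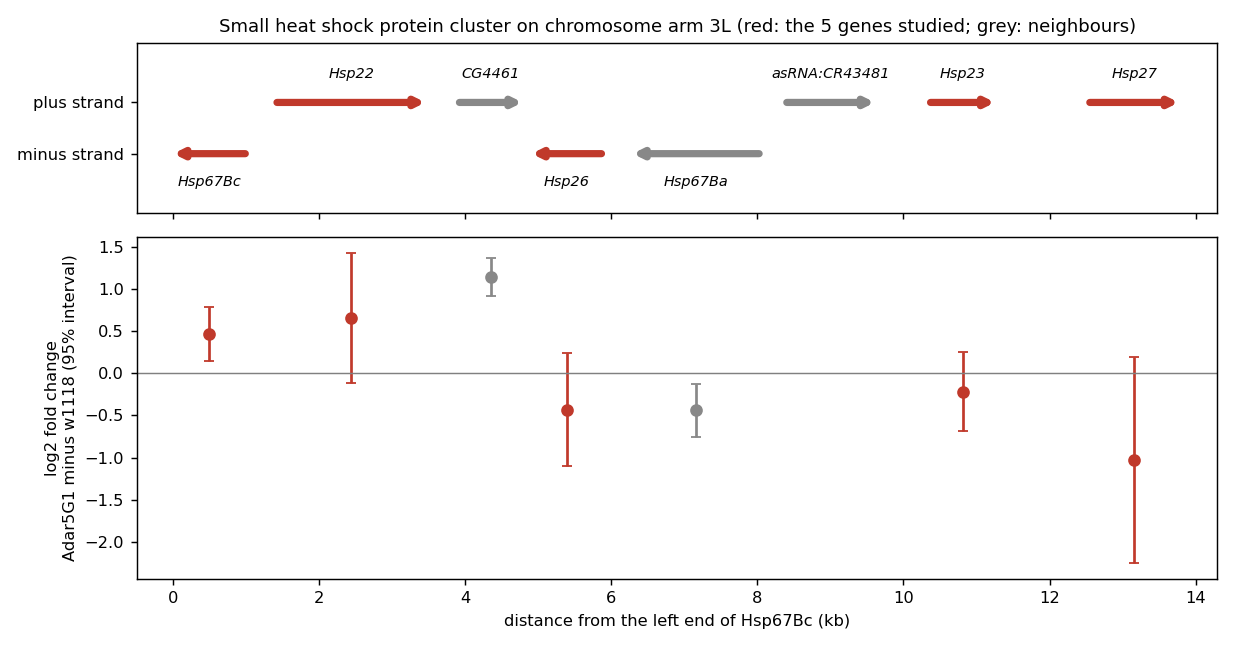
The upper panel maps the genes of the small heat shock protein cluster to scale, in kb from the left end of Hsp67Bc, with arrows for strand and CG4456 left out, and the lower panel gives the log2 fold change of each gene at the same position with its 95% interval. CG4461 stands at 1.15 between Hsp22 (0.66) and Hsp26 (-0.43), and asRNA:CR43481, with 2 fragments in w1118, has no point.

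Among related chaperone genes, 60 names were listed, 58 were matched and 54 were tested. In Adar5G1, 3 were higher and 2 lower, which was 9.26% of the 54 beside 13.9% of all genes tested, with a median log2 difference of -0.09. Of the values, 15 were positive and 39 negative, beside 5099 positive and 5102 negative over all genes tested. These counts include CG4456, which repeats the fragments of Hsp22, and CG4461.

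The other small heat shock proteins had 7 tested genes, of which 2 were higher, 0 lower, and the median log2 difference was 0.20. They were CG4461 and CG7409, FBgn0035817 at 3L:7747509-7748268, which also encodes an alpha-crystallin domain protein and lies outside the cluster. CG7409 had 107.8, 118.6 and 108.3 CPM in the Adar5G1 libraries and 41.5, 35.9 and 48.6 CPM in the w1118 libraries. The groups were far apart, with means of 111.5 ± 6.08 and 42.0 ± 6.35 CPM (SD, n = 3 each), a 2.66-fold rise (log2 1.41, SE 0.11, edgeR adjusted p 0.000165). Both CG4461 and CG7409 were called under all 17 alternatives. Markers of fat body, a tissue of the head capsule, differed too. Of 5 tested fat body genes, 4 were higher in Adar5G1, where 8.82% of all genes tested were higher. The summed levels, mostly of apolpp and FASN1, were 7102 to 12499 CPM against 3681 to 5541 CPM in w1118. Fbp1 rested on 63 fragments against 6, and Lsp2 had overlapping groups and was not called. The yolk protein gene Yp1 was near 0. The part of fat body in the rise of CG4461 and CG7409 was not tested.

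The cytosolic Hsp70, Hsc70 and Hsp110 list had 8 tested genes, with 0 higher, 1 lower and a median log2 difference of -0.33. The lower gene was Hsp70Ba, one of the near-identical heat-inducible Hsp70 copies, with 0 fragments in all 3 Adar5G1 libraries against 41, 17 and 23 in w1118. It was at least 31.0-fold lower, against a floor of 3 counts over the group, with an edgeR adjusted p of 0.016. Hsp70Ba passed the expression filter through its w1118 counts alone. The call was kept in the 15 alternatives that tested the gene and was lost at an adjusted p of 0.01. With the 50-count filter or without both libraries numbered 3, Hsp70Ba was not tested. Another copy, Hsp70Bc, had 14, 9 and 38 fragments in Adar5G1 against 1, 14 and 5 in w1118, which per library size put every Adar5G1 library above every w1118 library. Its log2 difference was 1.399 (SE 0.48, edgeR adjusted p 0.0991), which did not pass. The copies Hsp70Bb and Hsp70Ab were lower, with overlapping groups, and did not pass either. Their log2 differences were -2.14 (SE 0.65, edgeR adjusted p 0.067) and -1.37 (SE 0.57, edgeR adjusted p 0.166). Genes of this list called lower were 3 with DESeq2, with total-count scaling or without w1118 replicate 2. Hsp70Bc, Hsp70Bb and Hsp70Ab were named after their values were seen. Reads shared between the copies were not counted, so values of single copies are uncertain.

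The J-domain list had 8 tested genes, with 0 higher and 1 lower and a median log2 difference of -0.08. The lower gene, jdp, had 251, 243 and 274 CPM in the Adar5G1 libraries and 361, 345 and 332 CPM in the w1118 libraries, without overlap. Its log2 difference was -0.43 (SE 0.07, edgeR adjusted p 0.00602), and the call was lost with total-count scaling, with an adjusted p of 0.705. Of 11 tested Hsp90 cochaperones 0 passed, with a median of -0.08, and the one with the highest CPM, p23, stood at -0.04 (edgeR adjusted p 0.859). Of 14 tested genes of the CCT chaperonin and prefoldin, which fold actin and tubulin, 0 passed, with a median of -0.14. The one with the highest CPM, CCT6, stood at 0.05 (edgeR adjusted p 0.822). The signs of p23 and CCT6 turned under some alternatives. Of 6 tested mitochondrial chaperones 1 was higher and 0 lower, with a median of -0.04. It was ClpX, the unfoldase of the mitochondrial ClpXP protease, at 1.20-fold (log2 0.26, SE 0.07, edgeR adjusted p 0.0468). The ClpX call was lost under 10 of 17 alternatives, among them the omission of each library but Adar5G1 replicate 3.

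The mean profile of the 5 small heat shock protein members over the 6 libraries was compared with that of every other tested gene, by the Euclidean distance between centred log2(CPM + 1) values. The nearest were CG3253 at 0.21, CG9360 and CG16820 at 0.24, CG10359 at 0.25 and crim at 0.27, none of them past the edgeR threshold. The members themselves were farther from their own mean profile, from 0.49 for Hsp26 to 1.06 for Hsp27, and the median distance of all other genes was 0.73.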

How the data were processed

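The authors deposited raw fragment counts per gene for each library. They came from featureCounts 1.4.5-p1 on FlyBase release 5.53, per the file headers, with the reverse-stranded setting, by exon. Fragments overlapping several genes were counted for each, and multi-mapping reads were not counted. The alignment was by TopHat to dm3 (BDGP5), per the submitters' processing notes, which name no version. Ribosomal RNA was depleted, per the labels' protocols, although the labels give polyA RNA, and KAPA libraries were read as 75-bp pairs.

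The row without a gene ID (0.369% to 0.633% of counts) was left out. Counts were tested in R 4.3.3 with edgeR 4.0.16, using its expression filter (filterByExpr, minimum count 10), TMM factors (0.764 to 1.25), the quasi-likelihood F test with genotype as the only term, and Benjamini-Hochberg adjustment over 10201 genes. Standard errors, approximate, are the log2 difference over the root of F. Levels are TMM-scaled CPM. Intervals and bounds on counts cover counting error only.

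The members and lists were chosen with earlier results of these data known. Named genes were the 10 members, up to 3 called genes of each related list with the smallest p or, with none, the one with the highest CPM, the genes within 10 kb of the cluster members and the 5 nearest profiles. Hsp70Ab, Hsp70Bb, Hsp70Bc, Hsp68, Hsc70-1 and Hsp110 were named after their values were seen. Alternatives were other scalings, DESeq2 1.42.0, limma-voom (limma 3.58.1), other filters, robust dispersion, removal of scaffold rows, the replicate number as a block, a stricter threshold and leaving out libraries. Leaving out both libraries numbered 3 was chosen after seeing the data.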

Additional observations from a re-analysis of the deposited data

How the results depend on the processing

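Of 169 log2 fold changes of the 10 members recomputed under 17 alternatives, 164 kept their direction and side of the threshold, 4 reversed and 1 passed the threshold. Leaving out 1 library at a time gave 0 members higher throughout and 0 to 1 lower, the 1 being Hsp27 without w1118 replicate 2. The reversed values were those of DnaJ-1, -0.020 with upper-quartile scaling, -0.0018 without Adar5G1 replicate 2, -0.042 without w1118 replicate 1 and -0.0010 without w1118 replicate 3, where leaving out 1 library gave up to 0.15. The value of p23 turned to 0.041 without Adar5G1 replicate 3, to 0.0082 without w1118 replicate 1 and to 0.023 without both libraries numbered 3 (-0.085 to 0.041 without 1 library), and that of CCT6 to -0.0091 with upper-quartile scaling, -0.023 without Adar5G1 replicate 2 and -0.014 without w1118 replicate 1 (up to 0.13 without 1 library). The cause was not tested.

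Related genes called lower, 2 in all, were 4 with upper-quartile scaling or DESeq2, 1 with the 50-count filter, an adjusted p of 0.01 or without both libraries numbered 3, and 2 to 4 without 1 library. Over all genes, 900 higher and 523 lower became 582 and 209 with total-count scaling, 456 and 248 at an adjusted p of 0.01, and 545 to 1024 and 331 to 515 without 1 library. Higher genes were 63.2% of calls, 51.5% with upper-quartile and 73.6% with total-count scaling. Same-numbered libraries did not deviate together (correlations of 0.0915, -0.171 and -0.270). With the replicate number as a block, 484 genes were higher and 278 lower, 1 related gene was lower (jdp lost its call, with an edgeR adjusted p of 0.0548) and 0 members were called. The small heat shock protein members rest on 17 to 177 fragments in a library, and Hsp27 did not pass the 50-count filter.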
